A study of Bombyx mori with 12 samples.

Results

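The line-by-stage interaction in ovaries of Bombyx mori, the domestic silkworm, asks for each gene whether the difference between TBH and WT animals at the pupal stage P4 differed from the one at the stage P2. It was computed per gene as (TBH minus WT at P4) minus (TBH minus WT at P2) on the log2(value + 1) scale, so that a positive value means that TBH stood higher relative to WT at P4 than at P2. All 12 ovary samples of the series entered: 3 of TBH at P4, 3 of WT at P4, 3 of TBH at P2 and 3 of WT at P2. Of 15745 genes listed, 5235 reached a value of 1 in no fewer than 3 of the 12 samples and were tested.

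The study is titled as work on a genetic silkworm model in which a raised protein level of the blood harms female reproduction, and it sequenced ovary RNA to look for genes affected. The labels give the animals as TBH or WT without spelling out TBH, its allele or its background, and they give no agent for any group. Per the treatment protocol, ovaries were dissected from 5 female pupae with n = 3. The labels do not say whether a sample pools animals, and p-values therefore reflect only how far these samples lie apart, which may be technical.

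In the pupal silkworm the ovary fills with growing follicles, each an oocyte with nurse cells inside a layer of follicle cells. Yolk is largely taken up rather than made there: vitellogenin and the 30K proteins come from the fat body, an organ comparable to liver and adipose tissue, and reach the oocyte through the hemolymph, the insect blood. The follicle cells later lay down the vitelline membrane and the chorion, the inner and outer eggshell. An interaction in such a tissue can thus involve yolk, eggshell, hemolymph or the tissue around the follicles, and lists of genes for each are described below.

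The 12 samples had 6399 to 7772 genes above 0, and their listed values summed to 468560 to 664130 each. The unit of the deposited values is not named and their depth is unknown, so no counting interval is given. Within a group, samples correlated across genes at r of 0.90 to 0.94 in TBH P4, 0.93 in WT P4, 0.91 to 0.93 in TBH P2 and 0.84 to 0.89 in WT P2. Of the genes listed as ovary markers, VIG and VMP23 were present in every sample, whereas NANOSO was listed at 0 in all 12. VMP23 was low at P2, with means of 4.87 in TBH P2 and 10.7 in WT P2. Whether VIG is particular to the ovary was not tested. VMP25, VMP90 and 5H4 of the same list were near 0, with group means of at most 0.13, 0.04 and 0.21. TBH P4 replicate 3 and WT P2 replicate 2 stood apart from the rest of their groups, most visibly in the share of the listed total held by cytosolic ribosomal protein genes. That share was 34.2%, 35.9% and 23.9% in TBH P4, 33.7%, 34.1% and 36.3% in WT P4, 30.8%, 30.9% and 32.5% in TBH P2 and 22.9%, 37.7% and 27.7% in WT P2.

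The line difference changed between the stages at 15 of 5235 genes, which is 0.287% of those tested (adjusted p under 0.05 with limma). At 6 genes (0.115%) the interaction was positive and at 9 genes (0.172%) it was negative. Of these 15 genes, 14 have neither a name nor a product in the table, and the remaining gene is a copy of U1, the spliceosomal RNA that recognises the start of introns. With 641 of 5235 tested genes (12.24%) named or described, the calls are mostly of genes whose function the table does not give. Without adjustment, 269 genes (5.14%) had a p under 0.05, 155 of them positive (2.96%) and 114 negative (2.18%). That share is close to the threshold of 0.05 itself, the share expected if no gene had an interaction. Counts of unadjusted p-values below are therefore description only. Leaving out TBH P4 replicate 3 and WT P2 replicate 2 together gave 8 calls, 7 of them among the 15. Leaving out 1 sample at a time gave 5 calls without TBH P4 replicate 2, 9 without TBH P2 replicate 1, 7 without TBH P2 replicate 2 and 23 once WT P2 replicate 2 was dropped, and 10 to 21 in the other 8 fits.

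The median interaction of all tested genes was 0.19, made of a median line difference of 0.18 at P4 and of -0.01 at P2. Interactions below are therefore given relative to this median, with 95% confidence intervals that treat the median as fixed. The p-values, by contrast, test the interaction itself against 0. The typical gene was measured coarsely: the median standard error was 0.64, and the median interval reached 1.41 to either side. The median standard error was 0.56 for the 3408 genes above 0 in all samples and 0.98 for the 1827 with at least 1 value listed at 0. Of 230 genes with an interaction beyond 2 in either direction, taken without subtracting the median, 15 passed the test. The smallest that passed had a size of 2.19 on that scale, which is 2.00 relative to the median. The last gene inside the threshold had an adjusted p of 0.0262 and the first outside had 0.0654.

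**Figure D1:**
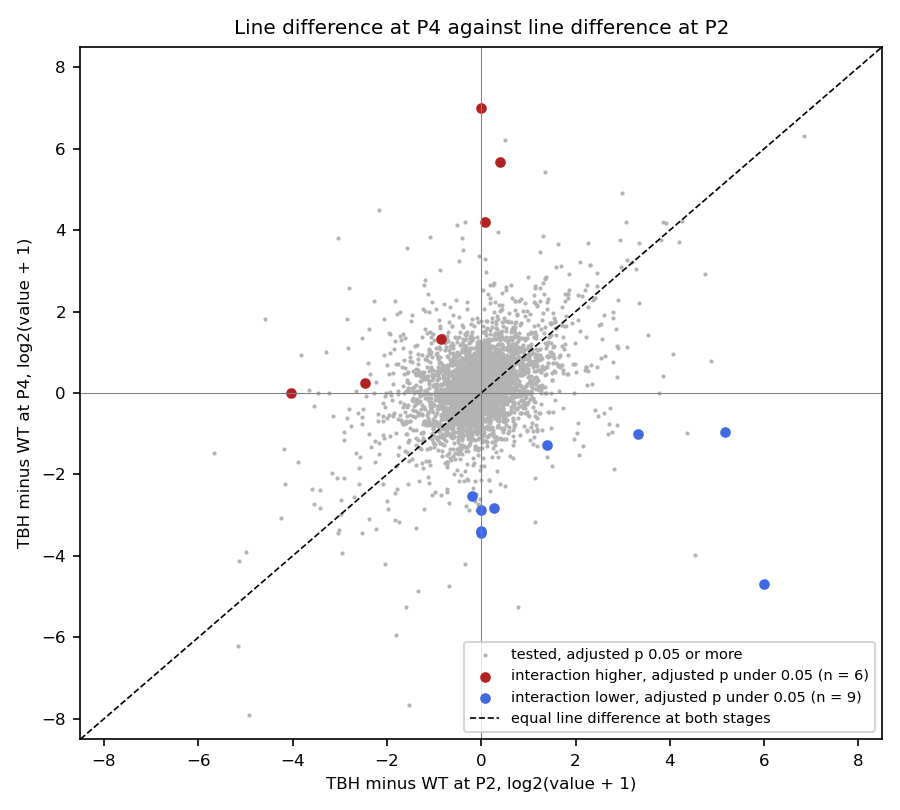
Each point is 1 of 5235 tested genes, with the difference of TBH minus WT at P2 on the x axis and at P4 on the y axis, both in log2(value + 1) units; red points are the 6 genes with a positive and blue points the 9 genes with a negative interaction past the threshold. Most called genes lie close to an axis, and most genes form a cloud around the origin that is only loosely stretched along the dashed line of equal differences.

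The plot of line differences shows how loosely the stages followed each other. Across the 5235 genes the 2 differences had a Pearson r of 0.36 and a Spearman rho of 0.30, and across the 2182 genes with a mean of at least 10 they had 0.39 and 0.32. Genes are not independent replicates, so this is a description of these samples. At 3886 genes (74.2%) the values of TBH and WT overlapped at both stages. The lines did not overlap at P4 only for 882 genes (16.8%), at P2 only for 266 (5.08%), and at both stages in the same direction for 181 (3.46%). At 20 genes (0.382%), all without a name or product, the lines stood apart in opposite directions at P4 and P2. WT P2 had the widest and WT P4 the narrowest spread: the median SD on the log2 scale was 0.50 in TBH P4, 0.30 in WT P4, 0.37 in TBH P2 and 0.66 in WT P2.

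Of the 15 called genes, 8 had lines apart at P4 only, 4 at P2 only and 3 at both stages in opposite directions. Of these, 11 were listed at 0 in all 3 samples of at least 1 group, and 13 had at least 1 value at 0, while 2 were above 0 in all 12 samples. Of the 15, those at 0 throughout a group numbered 7 in TBH P4, 3 in WT P4, 6 in TBH P2 and 7 in WT P2. Whether an exact 0 is an absent transcript or a failed estimate was not tested, and 3 ribosomal protein genes are listed at 0 in every sample too. No fold is therefore given against a group at 0.

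**Figure D2:**
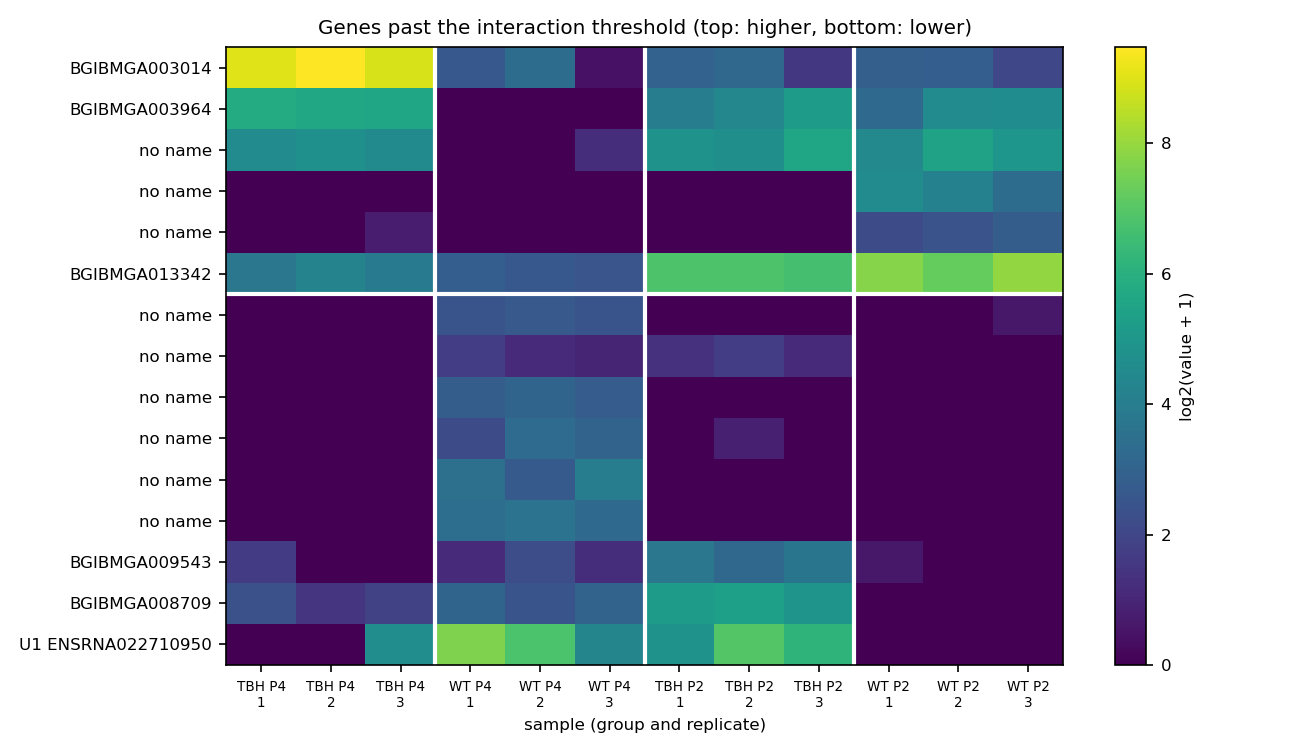
Colour gives log2(value + 1) of the 15 called genes (rows, ordered by interaction, the positive 6 above the horizontal white line) in the 12 samples (columns, by group and replicate). BGIBMGA003014 was bright in TBH P4 only, several genes in the lower block were above 0 almost only in WT P4, and the U1 copy varied within TBH P4 and WT P4.

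Among the genes with a positive interaction, BGIBMGA003014 had the largest. BGIBMGA003014 had 518, 711 and 481 in TBH P4 and 5.08, 9.09 and 0.37 in WT P4, against 6.85, 8.14 and 1.89 in TBH P2 and 6.34, 6.19 and 3.01 in WT P2. All 3 TBH P4 ovaries stood far above the other 9 samples, in which the values of TBH and WT at P2 overlapped. The ratio of the means was 118 at P4 and 1.09 at P2, and the interaction was 6.83 (95% interval 4.75 to 8.90, adjusted p = 0.0098). It passed the test in 22 of 25 other settings. Among the samples left out in turn it was lost only without TBH P4 replicate 2 (adjusted p = 0.0507), and without both samples that stand apart the adjusted p was 0.0677.

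BGIBMGA003964 had a positive interaction of another kind, with WT P4 apart from the other groups. BGIBMGA003964 had 56.2, 49.8 and 46.1 in TBH P4 and 0 in all 3 samples of WT P4, against 15.3, 19.8 and 36.9 in TBH P2 and 8.52, 22.9 and 23.5 in WT P2. Every TBH P4 sample was above every P2 sample, the lines overlapped at P2, and WT P4 alone was at 0. The interaction was 5.09 (95% interval 3.80 to 6.39, adjusted p = 0.0032) and passed in all 24 other settings that could test it. A further unnamed gene also had its low values in WT P4, with 22.4 to 26.3 in TBH P4, 0 to 1.35 in WT P4, 25.3 to 47.6 in TBH P2 and 21.1 to 43.0 in WT P2. Its TBH P4 values lay within or below those of P2. That call was present in 18 of 24 other settings, with adjusted p-values up to 0.108. Among the samples left out in turn it was lost without TBH P4 replicate 2 (adjusted p = 0.0559) or TBH P2 replicate 2 (0.052).

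BGIBMGA013342, chosen for naming after its values were seen, was the called gene with a positive interaction whose lines did not overlap at either stage. BGIBMGA013342 had 12.7, 17.9 and 14.4 in TBH P4 and 6.11, 5.16 and 4.62 in WT P4, against 113, 113 and 101 in TBH P2 and 213, 148 and 243 in WT P2. TBH was above WT in all P4 samples and below WT in all P2 samples, and both lines had lower values at P4. The ratio of the means was 2.83 at P4 and 0.541 at P2, and the interaction was 2.00 (95% interval 1.25 to 2.75, adjusted p = 0.0217). This call was less settled: it was present in 13 of 25 other settings, with adjusted p-values up to 0.109, and in 5 of the 12 fits that each left out 1 sample. It was lost without TBH P4 replicate 2 (adjusted p = 0.0802), WT P4 replicates 2 (0.0716) or 3 (0.0582), TBH P2 replicates 1 (0.0672), 2 (0.0733) or 3 (0.0709), or WT P2 replicate 3 (0.057). The 2 remaining genes with a positive interaction were above 0 mainly in WT P2, at 9.23 to 22.5 with 0 in the other 9 samples, and at 3.5 to 6.01 with at most 0.67 in TBH P4 and 0 in WT P4 and TBH P2. Both entered the test only through the 3 WT P2 samples, so their layout is in part set by the filter. The one with 9.23 to 22.5 passed in all 23 other settings that could test it. The one with 3.5 to 6.01 passed in 7 of 23 and in 2 of the 12 fits that left out 1 sample, those without WT P2 replicate 1 or 2, and its adjusted p was 0.0529 to 0.0771 in the other 10.

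Among the genes with a negative interaction, BGIBMGA008709 had the smallest adjusted p of the whole test. BGIBMGA008709 had 4.06, 1.78 and 2.64 in TBH P4 and 7.32, 4.51 and 7.18 in WT P4, against 37.1, 40 and 29.1 in TBH P2 and 0 in all 3 samples of WT P2. TBH P4 was below WT P4 in every sample, whereas TBH P2 had the highest values of all groups and WT P2 was at 0. The interaction was -6.32 (95% interval -7.41 to -5.23, adjusted p = 0.000334), called in all 24 other settings that could test it. BGIBMGA009543 had a similar order of groups at lower values. BGIBMGA009543 had 2.1, 0 and 0 in TBH P4 and 1.26, 3.77 and 1.38 in WT P4, against 12.4, 8.08 and 11.7 in TBH P2 and 0.51, 0 and 0 in WT P2. TBH P2 stood above the other 9 samples, and TBH P4 and WT P4 overlapped. Its interaction was -4.54 (95% interval -6.10 to -2.98, adjusted p = 0.0262), but it was called in only 8 of 23 other settings, with adjusted p-values up to 0.105, and in 3 of the 12 fits that left out 1 sample. It was lost without TBH P4 replicates 2 (adjusted p = 0.102) or 3 (0.0805), WT P4 replicates 1 (0.0542), 2 (0.0716) or 3 (0.0581), TBH P2 replicates 1 (0.0935), 2 (0.0726) or 3 (0.0709), or WT P2 replicate 3 (0.0813).

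For 5 unnamed genes with a negative interaction, values above 0 were listed almost only in WT P4. For 3 of them all other samples were at 0, and WT P4 had 8.56 to 11.1, 5.69 to 7.3 and 5.37 to 14.9. The other 2 had 3.44 to 8.86 and 4.5 to 5.25 in WT P4, with a single value of 0.76 in TBH P2 and 0.51 in WT P2. Genes of this kind entered the test only through the 3 WT P4 samples, since the filter asks for 3 samples at 1 or more, so their layout is in part set by the filter. The 3 genes at 0 elsewhere were called in 23, 22 and 19 of 23 other settings, and the third of them, at 5.37 to 14.9, was lost without TBH P4 replicate 2 (adjusted p = 0.0559) or TBH P2 replicate 2 (0.052). The gene at 3.44 to 8.86 was called in 8 of 23 settings and in 2 of the 12 fits that left out 1 sample, those without WT P4 replicate 1 or WT P2 replicate 2, with 0.0567 to 0.105 in the other 10. The gene at 4.5 to 5.25 was called in 7 of 23 settings, with adjusted p-values up to 0.427, and in 2 of the 12 fits, those without WT P2 replicate 2 or 3, with 0.0581 to 0.107 in the other 10. The last called gene without a name was low throughout, at 0 in TBH P4, 0.98 to 2.3 in WT P4, 1.17 to 2.32 in TBH P2 and 0 in WT P2. It was called in 12 of 23 settings, and was lost without any 1 of the TBH P4 samples, WT P4 replicate 2, TBH P2 replicate 1 or 2, or WT P2 replicate 3 (adjusted p = 0.0582 to 0.0802).

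The called U1 copy, ENSRNA022710950, had the largest interaction of the 15 and the widest interval. U1 ENSRNA022710950 had 0, 0 and 24.1 in TBH P4 and 201, 109 and 19.1 in WT P4, against 27.8, 123 and 70.6 in TBH P2 and 0 in all 3 samples of WT P2. TBH P4 replicate 3 was above WT P4 replicate 3, so the lines overlapped at P4, while at P2 all TBH samples were above WT at 0. The interaction was -10.88 (95% interval -14.54 to -7.22, adjusted p = 0.0217), called in 15 of 24 other settings and in 5 of the 12 fits that left out 1 sample. The call was lost without TBH P4 replicates 1 (adjusted p = 0.0647) or 2 (0.0778), WT P4 replicates 1 (0.0581) or 2 (0.0716), TBH P2 replicates 2 (0.0726) or 3 (0.064), or WT P2 replicate 3 (0.0589). Without both samples that stand apart it was still called.

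U1 is present in many near-identical copies, 392 in the table, 43 of them above 0 somewhere and 11 tested, and the sources used here do not tell how reads were shared between copies. A single copy is therefore uncertain. Of the 11 tested copies, 6 lay above and 5 below the median of all genes. U1 ENSRNA022711394 had 0 in all 3 samples of TBH P4 and 48, 77.8 and 0 in WT P4, against 26.8, 23.6 and 17 in TBH P2 and 0 in all 3 samples of WT P2. This copy had an interaction of -8.69 (95% interval -12.50 to -4.88, adjusted p = 0.105) and was called without WT P4 replicate 3 (adjusted p = 9.11e-06). Another copy, ENSRNA022711048, went the other way, with 139, 122 and 12.1 in TBH P4 and 0, 0 and 19.1 in WT P4, against 0 in all 3 samples of TBH P2 and 0, 89 and 0 in WT P2 and an interaction of 6.46 (95% interval 1.16 to 11.75, adjusted p = 0.717). Summed over all copies, U1 was 1316, 417 and 387 in TBH P4, 950.0, 1252 and 618 in WT P4, 221, 204 and 212 in TBH P2 and 107, 222 and 124 in WT P2, so that both lines overlapped at both stages.

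Other structural RNAs leaned to negative interactions, without passing the test. All 9 tested copies of U2, which pairs with the branch point of introns, lay below the median of all genes, and the 20 tested spliceosomal RNAs had a median of -1.16, with 1 called. Single samples decided the size of that median: dropping WT P2 replicate 1 gave -0.05 (13 of 20 below the median of all genes), and dropping replicate 2 of that group gave -2.28 (17 of 20). Among 9 tested ribosomal RNAs the median was -1.57 and 0 were called, 3 having an unadjusted p under 0.05. Those 3 are identical rows for 5.8S rRNA, a part of the large ribosomal subunit. The 5.8S rRNA had 2546, 2500.2 and 1808 in TBH P4 and 6623, 4055 and 4025 in WT P4, against 4973, 4157 and 3826 in TBH P2 and 2427, 7031 and 2467 in WT P2. TBH P4 was below WT P4 throughout, and at P2 the lines overlapped, as WT P2 replicate 2 had more than any TBH P2 sample. The interaction was -1.57 (95% interval -2.74 to -0.40, adjusted p = 0.807), and without WT P2 replicate 2 it was -2.28 (adjusted p = 0.0486). In the list of 10 other non-coding RNAs, 9 were below the median of all genes and the list's median was -1.42, or -2.13 without WT P2 replicate 2. It includes RNase P, which trims tRNA precursors, at -3.42 (95% interval -6.10 to -0.73, adjusted p = 0.807), the signal recognition particle RNA, at -2.55 (95% interval -4.63 to -0.47, adjusted p = 0.858), and U3, a nucleolar RNA of pre-rRNA processing, at -1.66 (95% interval -3.03 to -0.29, adjusted p = 0.899). The labels do not name a method of RNA selection beyond total RNA, and its part in these values was not tested.

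None of the 641 named or described genes other than the U1 copy passed the test, and none of the genes from here on did. The following are those with the smallest unadjusted p in each direction, ordered by role, and they serve to show what the individual values look like.

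Of 5 yolk and storage proteins, 3 passed the filter on low values, with a median of 2.19 relative to all genes and 0 called. Without the filter the median of all 5 was 0.34, with 1 below the median of all genes. Vitellogenin (VG) is the main yolk precursor. VG had 1.91, 3.53 and 3.36 in TBH P4 and 2.06, 10.9 and 2.1 in WT P4, against 5.22, 4.5 and 2.92 in TBH P2 and 43.3, 47.3 and 98 in WT P2. The WT P2 ovaries stood above all other samples, whose values overlapped between the lines at P4. The interaction was 3.03 (95% interval 1.35 to 4.71, adjusted p = 0.209), and without WT P4 replicate 2, the high sample of its group, the adjusted p was 0.0376. SP1, a sex-specific storage protein of the hemolymph, had 0.35, 0.09 and 0.03 in TBH P4 and 0.12, 0.22 and 0.26 in WT P4, against 1.26, 1.07 and 0.2 in TBH P2 and 5.12, 18.6 and 6.58 in WT P2. As for VG, WT P2 stood above the rest, and the interaction was 2.19 (95% interval 0.80 to 3.59, adjusted p = 0.319). SP2, a storage protein too, had an interaction of 0.21 (95% interval -0.93 to 1.35, adjusted p = 1).

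Uricase, which degrades uric acid, shared this layout. Uricase had 0.15, 1.36 and 0.64 in TBH P4 and 0.23, 0.82 and 0.82 in WT P4, against 1.66, 2.37 and 2.56 in TBH P2 and 7.14, 9.46 and 9.34 in WT P2. WT P2 was above TBH P2 without overlap, the lines overlapped at P4, and the interaction was 1.45 (95% interval 0.29 to 2.60, adjusted p = 0.606).

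The list of 30K and other hemolymph proteins, which includes carriers of lipid in the hemolymph, held both layouts. Of its 13 tested members, 7 had their highest group mean in WT P2, 5 in TBH P2 and 1 in TBH P4. LP and LP-C19, lipoproteins of the 30K family picked after their values were seen, belong to the first kind. LP had 1, 1.88 and 0.41 in TBH P4 and 1.59, 2.63 and 1.19 in WT P4, against 17.4, 14.3 and 13.9 in TBH P2 and 25.6, 76 and 35 in WT P2. WT P2 was above TBH P2 without overlap, the lines overlapped at P4, and the interaction was 0.74 (95% interval -0.63 to 2.11, adjusted p = 1). LP-C19 had 0.33, 0 and 0.1 in TBH P4 and 0.34, 1.32 and 1.08 in WT P4, against 5.33, 3.49 and 4.64 in TBH P2 and 11.3, 37.2 and 8.05 in WT P2. At both stages WT was above TBH without overlap, and the interaction was 0.67 (95% interval -0.91 to 2.26, adjusted p = 1). Without WT P2 replicate 2, the high sample of its group, it was 0.10 for LP and -0.15 for LP-C19. The 3 members with the smallest p-values had their highest mean in TBH P2. 30K protein 14 had 1.37, 0.27 and 0.1 in TBH P4 and 0, 0 and 0.05 in WT P4, against 7.48, 6.51 and 3.92 in TBH P2 and 0.29, 0.3 and 0.69 in WT P2. TBH was above WT at both stages without overlap, and the gap was wider at P2 on the log2(value + 1) scale, giving an interaction of -1.90 (95% interval -3.04 to -0.76, adjusted p = 0.495). By the ratio of the means, 34.8 at P4 and 14.0 at P2, the gap was instead wider at P4, where the values were near 0. In the 23 other settings that could test 30K protein 14, its interaction lay between -2.32 and -1.31. 30K protein 12 had 5.17, 0.66 and 1.4 in TBH P4 and 0.51, 0.7 and 0.59 in WT P4, against 25.7, 35.1 and 24.8 in TBH P2 and 1.72, 5.34 and 6.29 in WT P2. Its lines overlapped at P4 and stood apart at P2, with TBH higher, and the interaction was -1.87 (95% interval -3.49 to -0.24, adjusted p = 0.952). Of the 13 tested members, 7 lay above and 6 below the median of all genes, 3 had an unadjusted p under 0.05, all negative, and 0 were called. Markers of fat body and hemolymph, 13 of 18 tested, summed to 127 to 242 in TBH P4, 95.8 to 165 in WT P4, 149 to 306 in TBH P2 and 282 to 331 in WT P2, and their part in these values was not tested. A single marker, listed as 30kDa protein, made up most of the sums at P4. Its means were 158 in TBH P4, 114 in WT P4, 137 in TBH P2 and 141 in WT P2. In bulk tissue, fewer cells of a type and less RNA per cell cannot be told apart.

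Among detoxifying enzymes, GSTD3, a glutathione S-transferase that conjugates glutathione to reactive compounds, had the lines apart at both stages. GSTD3 had 139.7, 133 and 168 in TBH P4 and 7.59, 3.88 and 1.79 in WT P4, against 101, 106 and 109 in TBH P2 and 11.9, 15.8 and 10.2 in WT P2. Every TBH sample was above every WT sample at each stage. The ratio of the means was 33.2 at P4 and 8.34 at P2, and the interaction was 1.74 (95% interval 0.63 to 2.84, adjusted p = 0.306). The widening of the gap thus missed the threshold, which does not show that the gap was equal at both stages. Of 20 tested detoxifying enzymes, 13 lay above the median of all genes, 2 had an unadjusted p under 0.05, both positive, and the list median was 0.11.

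Further genes had higher values in TBH than in WT at P4, without a like gap at P2. SPARC, a collagen-binding matrix glycoprotein, had 582, 758 and 1045 in TBH P4 and 308, 196 and 270.5 in WT P4, against 529, 459 and 968 in TBH P2 and 589.9, 577 and 546 in WT P2. TBH P4 was above WT P4 without overlap, and the lines overlapped at P2. The interaction was 1.30 (95% interval 0.36 to 2.23, adjusted p = 0.42). C/EBPG, given in the table as an ovary transcription factor of the C/EBP family, had 39, 38.8 and 56 in TBH P4 and 15.6, 19.8 and 27.6 in WT P4, against 36.3, 43.3 and 20.2 in TBH P2 and 48.2, 32.3 and 38.6 in WT P2. Here too the lines stood apart at P4 and overlapped at P2, with an interaction of 1.18 (95% interval 0.16 to 2.20, adjusted p = 0.674). IVD, isovaleryl-CoA dehydrogenase of leucine breakdown, had 14.8, 14.5 and 14.8 in TBH P4 and 4.94, 6.91 and 7.38 in WT P4, against 6.3, 5.81 and 6.43 in TBH P2 and 9.68, 5.83 and 7.18 in WT P2, and its interaction was 1.14 (95% interval 0.23 to 2.05, adjusted p = 0.548).

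Eggshell genes gave no call. VMP23, a vitelline membrane protein, had 504, 401 and 442 in TBH P4 and 534, 1210.4 and 608 in WT P4, against 3.16, 6.53 and 4.92 in TBH P2 and 9.69, 13.3 and 8.99 in WT P2. Its P4 values were far above its P2 values in both lines, and TBH was below WT without overlap at each stage. The interaction was 0.11 (95% interval -0.90 to 1.13, adjusted p = 1), an interval that holds 0, and its sign changed in several other settings. CBZ, given in the table as a chorion b-ZIP transcription factor, had 5.93, 7.49 and 17.8 in TBH P4 and 0.03, 0.51 and 2.72 in WT P4, against 11.3, 8.85 and 3.82 in TBH P2 and 15.8, 0 and 10.6 in WT P2 and an interaction of 1.80 (95% interval -1.13 to 4.74, adjusted p = 1). In the list of vitelline membrane, chorion and ovary factors, 5 of 9 members were tested, 3 above and 2 below the median of all genes.

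**Figure D3:**
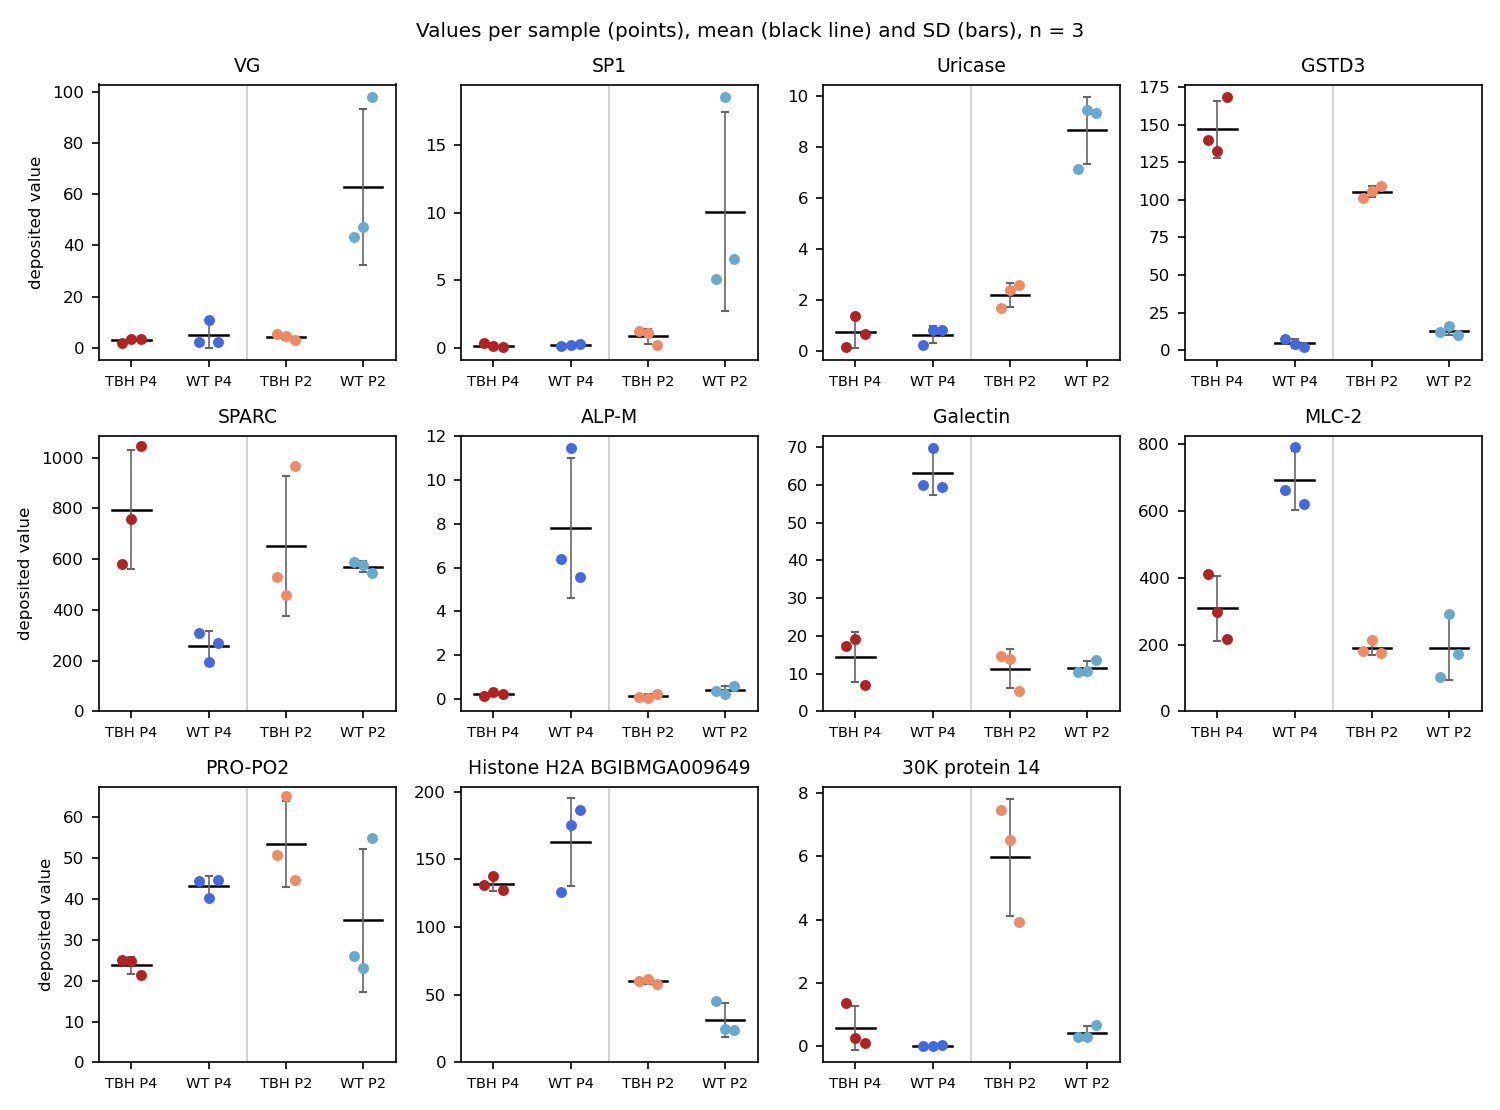
Deposited values of 11 named genes in each sample (points, coloured by group), with the group mean (black line) and SD (bars, n = 3), on linear axes that differ between panels. VG, SP1 and uricase were high in WT P2, and ALP-M and galectin in WT P4, while GSTD3 was high in TBH at both stages.

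Among named genes with a negative interaction, ALP-M, a membrane-bound alkaline phosphatase, came closest to the threshold. ALP-M had 0.12, 0.33 and 0.24 in TBH P4 and 6.38, 11.5 and 5.58 in WT P4, against 0.07, 0.04 and 0.25 in TBH P2 and 0.37, 0.23 and 0.61 in WT P2. The WT P4 ovaries stood above all other samples, and the interaction was -2.65 (95% interval -3.66 to -1.64, adjusted p = 0.0654). ALP-M entered the test only through the WT P4 samples, so its layout is in part set by the filter. It was called under quantile normalization (0.0387), without the trend of the variance (0.0313), with sample weights (0.0396) and among genes above 0 in all samples (0.0148), each an adjusted p. Galectin, a lectin that binds galactosides, had 17.3, 19.3 and 6.97 in TBH P4 and 60, 69.9 and 59.6 in WT P4, against 14.7, 14 and 5.34 in TBH P2 and 10.4, 10.6 and 13.7 in WT P2. WT P4 was again above the rest, the lines overlapped at P2, and the interaction was -2.22 (95% interval -3.53 to -0.91, adjusted p = 0.452).

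PRO-PO2, a prophenoloxidase of the melanising immune response, had groups in another order. PRO-PO2 had 24.9, 24.8 and 21.4 in TBH P4 and 44.5, 40.2 and 44.6 in WT P4, against 50.6, 65 and 44.6 in TBH P2 and 26.1, 23.2 and 54.9 in WT P2. TBH P4 was below WT P4 without overlap, whereas at P2 WT replicate 3 lay among the TBH samples. The interaction was -1.72 (95% interval -2.67 to -0.77, adjusted p = 0.411). Hemocyte markers, 2 of 4 tested with PRO-PO2 among them, summed to 29.6 to 35.6 in TBH P4, 40.9 to 47.6 in WT P4, 209 to 263 in TBH P2 and 122 to 186 in WT P2, and PPO1 was listed at 0 in all groups but TBH P4. Their part in the result was not tested. Lysozyme, which cleaves bacterial cell walls and makes up most of that sum at P2, had an interaction of 1.14 (95% interval -0.28 to 2.56, adjusted p = 1). LEB1/2, a lebocin antimicrobial peptide, had -1.77 (95% interval -3.43 to -0.11, adjusted p = 0.986), and of 18 tested immune genes 8 lay above and 10 below the median of all genes.

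MLC-2, a regulatory light chain of the motor protein myosin, had its highest values in WT P4. MLC-2 had 412, 298 and 217 in TBH P4 and 663, 791 and 622 in WT P4, against 181, 214 and 176 in TBH P2 and 103, 291 and 173 in WT P2. TBH P4 was below WT P4 without overlap, and at P2 the lines overlapped. The interaction was -1.52 (95% interval -2.58 to -0.46, adjusted p = 0.717). Muscle-type actin A1 had 788, 587 and 502 in TBH P4 and 884, 1283 and 851 in WT P4, against 289.8, 401 and 281 in TBH P2 and 248, 348 and 553 in WT P2, with an interaction of -0.69 (95% interval -1.64 to 0.25, adjusted p = 1). Of 13 tested genes of muscle and cytoskeleton, 10 lay below the median of all genes and the list median was -0.29. This lean was absent without TBH P4 replicate 3 (6 below, median 0.0004) and without WT P2 replicate 1 (6 below, median 0.06). The muscle markers, 3 of 6 tested with both of these genes among them, summed to 759 to 1252 in TBH P4, 1510 to 2138 in WT P4, 486 to 650.5 in TBH P2 and 359 to 752 in WT P2. Tropomyosin-1 was listed at 0 in all samples, and the part of muscle in these results was not tested.

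Histone genes gave interactions in both directions. Histone H2A BGIBMGA009649, a core nucleosome protein, had 131, 138 and 127 in TBH P4 and 126, 176 and 186 in WT P4, against 60.1, 61.4 and 58.2 in TBH P2 and 45.7, 24.6 and 24 in WT P2. At P4 the lines overlapped and at P2 TBH was above WT in every sample, with an interaction of -1.44 (95% interval -2.24 to -0.64, adjusted p = 0.447). H2AX-L had an interaction of 2.34 (95% interval -0.12 to 4.80, adjusted p = 0.953), in the opposite direction. Among 16 tested genes of histones and chromatin, 11 lay above and 5 below the median of all genes, with a list median of 0.36, or 0.003 (8 on each side) with sample weights, 0.17 once TBH P4 replicate 3 was dropped and 0.57 once replicate 1 of that group was. Histone copies are near-identical in part, so the values of single copies are uncertain.

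Cuticle proteins form large families in the table, and their transcripts can come from epidermis or trachea. Of 24 tested RR cuticle proteins, 13 lay above and 11 below the median of all genes, and of 24 other cuticle proteins 12 lay on each side, with 0 called in either list. BMORCPH1 had 0, 1.24 and 0 in TBH P4 and 8.03, 5.79 and 4.48 in WT P4, against 7.37, 21.7 and 10.4 in TBH P2 and 13.3, 8.68 and 9.54 in WT P2. TBH P4 stood below the other groups, and the interaction was -2.79 (95% interval -4.25 to -1.33, adjusted p = 0.284). BMORCPR49 had 5.21, 4.49 and 2 in TBH P4 and 0 in all 3 samples of WT P4, against 0, 0 and 0.87 in TBH P2 and 0 in all 3 samples of WT P2. It was above 0 throughout TBH P4 and in 1 TBH P2 sample, with an interaction of 1.73 (95% interval 0.63 to 2.84, adjusted p = 0.306). BMORCPR49 passed the filter only through the TBH P4 samples, so its layout is in part set by that filter. Summed over the list of cuticle markers, 48 of 178 tested, the values were 1673 to 3051 in TBH P4, 1858 to 4176 in WT P4, 7902 to 8742 in TBH P2 and 5284 to 17007 in WT P2, the highest being WT P2 replicate 2, and their part in these values was not tested. By group means, CPH43 BGIBMGA005303 made up most of these sums, with 2401 in TBH P4, 2882 in WT P4, 5456 in TBH P2 and 5639 in WT P2. CPG43 followed at P2, with means of 2398 in TBH P2 and 3012.5 in WT P2, against 9.20 in TBH P4 and 6.60 in WT P4.

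The neuropeptide-like 4 genes, named after a secreted peptide precursor of Drosophila, were near 0 at P4 in both lines. Neuropeptide-like 4D had 0 in all 3 samples of TBH P4 and 0 in all 3 samples of WT P4, against 36.1, 33 and 32 in TBH P2 and 0, 15.4 and 0 in WT P2. At P4 all samples were at 0, so its interaction of -3.96 (95% interval -6.60 to -1.32, adjusted p = 0.606) rests on the P2 samples. Without WT P2 replicate 2, the only WT sample above 0, the adjusted p was 0.00038. Another member, Neuropeptide-like 4B BGIBMGA011763, had 0 in all 3 samples of TBH P4 and 15.3, 0 and 0 in WT P4, against 115, 124 and 37.5 in TBH P2 and 125, 112 and 93.3 in WT P2 and an interaction of -1.11 (95% interval -3.90 to 1.67, adjusted p = 1). Of 8 tested members, 6 lay below the median of all genes and 0 were called.

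Cytosolic ribosomal proteins, the protein part of the ribosome, lay mostly on one side of the median of all genes. Of 44 tested genes, 40 lay below it, against 50% of all tested genes by definition, and the list median was -0.61. Yet 0 were called and 0 had an unadjusted p under 0.05. RPS2 had 11059, 11337 and 5694 in TBH P4 and 9816, 10594 and 12277 in WT P4, against 9359, 8667 and 9266 in TBH P2 and 3542, 10427 and 4956 in WT P2. TBH P4 replicate 3 was low in its group and WT P2 replicate 2 was high in its group, and the interaction was -1.15 (95% interval -2.29 to -0.01, adjusted p = 1). The list median was -0.20 without TBH P4 replicate 3 and -0.10 under quantile normalization, and leaving out replicates of WT P2 gave -0.14 for replicate 1 and -1.12 for replicate 2, and it stayed below 0 in all 25 other settings. The ribosomal share given above moved with the same samples, and its part in this list was not tested.

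The rest of the protein-making apparatus showed no such lean. The 22 translation factors had a list median of 0.02, with 12 above the median of all genes. Among them eIF2 subunit 2, a part of the factor that brings the initiator tRNA, had an interaction of 0.71 (95% interval -0.09 to 1.51, adjusted p = 0.858). The 4 mitochondrial ribosomal proteins had a median of 0.01, and the 4 aminoacyl-tRNA ligases, which charge tRNAs, had -0.04, with glycine--tRNA ligase at 0.62 (95% interval -0.11 to 1.34, adjusted p = 0.88).

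Lists of energy metabolism lay near the median of all genes too, with 0 called in each. The 17 tested genes of the respiratory chain had a median of -0.10 and the 16 of glycolysis and the citric acid cycle 0.06. Malic enzyme, which makes NADPH for fatty acid synthesis, had 4.18, 6.56 and 3.7 in TBH P4 and 4.74, 1.19 and 2.35 in WT P4, against 0.92, 3.87 and 1.27 in TBH P2 and 3.36, 7.43 and 8.43 in WT P2 and an interaction of 1.86 (95% interval 0.28 to 3.45, adjusted p = 0.714). Subunit d of the mitochondrial ATP synthase, an abundant gene with narrow spread, had an interaction of 0.25 (95% interval -0.20 to 0.69, adjusted p = 0.964). The 12 genes of lipid metabolism had a median of 0.13.

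Among regulators of growth, the 21 tested genes of cell cycle and DNA replication had a median of -0.14, with 15 below the median of all genes (12, and a median of -0.02, without WT P4 replicate 2), and the lowest unadjusted p was that of borealin, a protein of the chromosomal passenger complex, at 0.51 (95% interval -0.28 to 1.31, adjusted p = 1). The 12 genes of hormone synthesis and signalling had a median of -0.17. CYP18A1, which inactivates ecdysteroids, the molting hormones, had -1.02 (95% interval -2.01 to -0.03, adjusted p = 1), and CYP306A1, which takes part in their synthesis, had -0.77 (95% interval -1.67 to 0.13, adjusted p = 1). Chaperones (33 tested, median 0.05) and genes of proteasome, ubiquitin and autophagy (30 tested, median 0.005) lay close to the median of all genes, as did prophenoloxidases, serpins and serine proteases (8 tested, median 0.03). The 13 genes of transport and channels had a median of -0.22, and the 7 of extracellular matrix and glycosidases had 0.16.

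**Figure D4:**
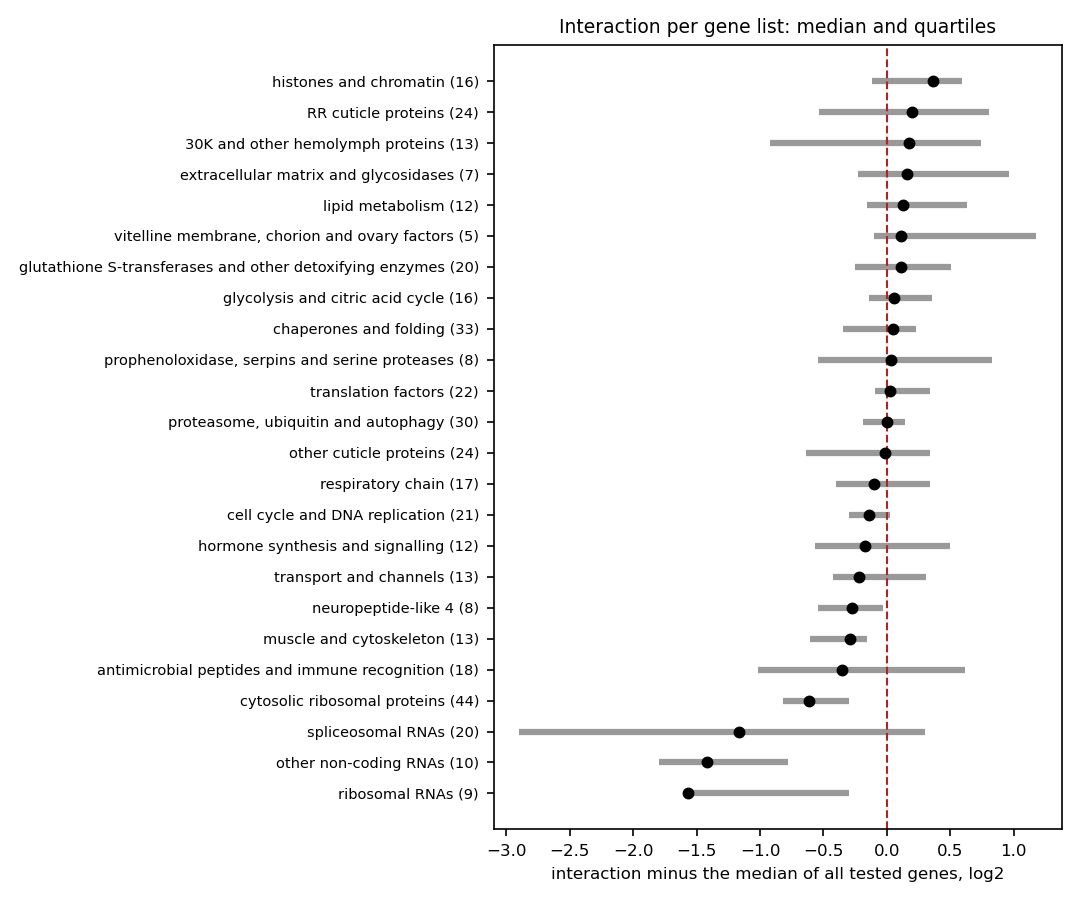
For each gene list with at least 5 tested members (number in brackets), the point is the median interaction relative to the median of all tested genes and the bar spans the quartiles, in log2 units; the dashed line marks the median of all genes. Ribosomal RNAs, other non-coding RNAs, spliceosomal RNAs and cytosolic ribosomal proteins have the lowest medians, from -1.57 to -0.61, and the other lists lie between -0.36 and 0.36.

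The 27 lists together held 418 tested genes, and the U1 copy was the only call among them. Of the 27 list medians, 7 kept their sign in every other setting: yolk and storage proteins, cytosolic ribosomal proteins, histones and chromatin, cell cycle and DNA replication, and the 3 lists of non-coding RNA. Markers of other tissues showed no call either: silk gland markers, 4 of 5 tested, summed to 285 to 404 in TBH P4, 191 to 301 in WT P4, 197 to 309 in TBH P2 and 163 to 375 in WT P2. BCP made up most of these sums, with means of 320 in TBH P4, 215 in WT P4, 223 in TBH P2 and 196 in WT P2. Fibroin heavy chain, FIBL and P25 of the silk gland list were low, with group means of at most 0.41, 1.08 and 2.05. Markers of the nervous system, 9 of 13 tested, summed to 1.67 to 8.24 in TBH P4, 3.44 to 19.5 in WT P4, 914 to 1097 in TBH P2 and 613 to 1664 in WT P2, most of it at P2 from the neuropeptide-like 4 genes. Among them BMORCPH27, described as both neuropeptide-like 4A and a cuticle protein, was also counted with the cuticle markers. Its means were 423 in TBH P2 and 430 in WT P2. PBAN, BNGR-A1 and NPF2 of the same list were near 0, with group means of at most 0.34, 0.23 and 0. Ovary markers, 4 of 8 tested, summed to 2133 to 2255 in TBH P4, 2476 to 2795 in WT P4, 1705 to 2351 in TBH P2 and 1896 to 2282 in WT P2. VIG made up most of these sums, with means of 1749 in TBH P4, 1843 in WT P4, 1919 in TBH P2 and 2125 in WT P2.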

How the data were processed

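Total RNA of ovaries was sequenced, per the labels' protocols, on an Illumina NovaSeq instrument. The authors deposited 1 table with a column for each of the 12 samples and columns of group means that were not used. As deposited by the authors, its values are an expression signal per gene, normalized in a way that neither the table nor the labels name. The submitters' processing notes name Cufflinks and DESeq2 without versions or roles. Aligner, genome build and annotation: not given in the sources used here. Genes were named from the table itself, since its IDs matched no ID of the RefSeq gene table, and no sequences were used.

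Samples were grouped by line and stage from their titles. The design foresaw edgeR for counts, but the values are normalized, so log2(value + 1) was fitted with limma 3.58.1 in R 4.3.3 (lmFit, contrasts.fit, eBayes with trend), 1 mean per group over all 12 samples, without scaling. Genes needed 3 samples or more with values no lower than 1. P-values were adjusted after Benjamini and Hochberg over all 5235 tested genes, with a threshold of 0.05. The pseudocount of 1 makes differences of low values look smaller. Depth is unknown. Ratios are of group means. The fit was tested on simulated data, with interactions planted only in genes of higher mean level. It called 4% of those of size 1, 34.4% of size 2, 66.4% of size 3 and 81.2% of size 4. False calls made up 5.1% of the calls. The simulated noise was normal, so groups with all values at 0 were not imitated.

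The genes, the lists and the tests were chosen with earlier results of these data known. Named are each called gene with a name or product, up to 2 called IDs without one per direction (largest interaction, mean of at least 1), the 12 described genes with the smallest p per direction and up to 3 per list, besides 3 chosen after their values were seen. One gene that this rule names is not reported here. Lists were found by words in names and products. Alternatives were other scalings, filters, pseudocounts, variance models, sample weights, a replicate block and leaving out samples.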

Additional observations from a re-analysis of the deposited data

Results flagged for a closer look

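At 6 named or identified genes the line difference at P4 differed from that at P2 by the test of that difference itself (limma, adjusted p under 0.05, values relative to the median of all genes). BGIBMGA003014 (6.83), BGIBMGA003964 (5.09) and BGIBMGA013342 (2.00) had positive interactions. BGIBMGA008709 (-6.32), BGIBMGA009543 (-4.54) and the U1 copy ENSRNA022710950 (-10.88) had negative ones. For BGIBMGA013342 and BGIBMGA008709 the lines stood apart in opposite directions at P4 and P2, a layout found at 20 of 5235 tested genes. No group exceeded 3 samples, so single samples were not searched for extreme values.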

How the results depend on the processing

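Calls depended on the processing, and 9 named genes changed sign. Median subtraction and a pseudocount of 0.1 each left 5 negative calls. Without a filter there were 7 calls (3 negative, 0 from the lists), at a mean of at least 10 there were 6 (2 negative), and among genes above 0 in all samples 4 (2 positive, 2 negative, 0 from the lists), where fewer of the 15 genes were testable. Sample weights gave 33 calls (17 positive, 16 negative, 2 from the lists), and leaving out TBH P4 replicate 3 and WT P2 replicate 2 together gave 8 (3 positive, 5 negative, 2 from the lists). Quantile normalization gave 20 calls, equal totals 14, no trend 16, robust limma 15. Leaving out 1 sample gave 5 to 23 calls, 2 to 10 positive, 3 to 13 negative and 0 to 5 from the lists: 5 without TBH P4 replicate 2, 7 without TBH P2 replicate 2, 9 without TBH P2 replicate 1, and, where WT P2 lost replicate 2, 23, which included all 15. Same-numbered samples share only a number: over 18 pairs their deviations correlated at -0.18 to 0.24, 1 pair above 0.1. With the replicate block there were 8 calls (4 negative, 0 from the lists), all among the 15. The cause of these shifts was not tested.

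VMP23 had -0.0057 under quantile normalization, -0.067 with weights and -0.039 without both samples, and -0.25 to 0.45 with 1 sample left out. MRPS25 had -0.0036, -0.088 and -0.23 in those settings and -0.20 to 0.30. MRPL12 had 0.050 under quantile normalization, 0.012 with equal totals, 0.13 without a filter, 0.019 above 0 in all samples, and -0.22 to 0.24. Lysine--tRNA ligase had -0.049 with weights, -0.093 without both samples, and -0.083 to 0.14. Alanine--tRNA ligase had 0.019 without a filter and -0.36 to 0.21. LP-C19 had -0.59 with a pseudocount of 0.1 and -0.15 to 1.09 with 1 sample left out. With 1 sample left out, SP2 ranged from -0.18 to 0.56, BMORCPH27 from -0.56 to 1.09 and Neuropeptide-like 4B BGIBMGA011763 from -1.81 to 0.25. No other named gene changed sign in a setting that tested it. Depth is unknown, so what it limits could not be stated.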

Other observations

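Single genes of lists described above, not given there by sample, showed further layouts, none past the test. Ubiquitin carboxyl-terminal hydrolase, which removes ubiquitin from proteins, was highest in WT P4, with 0.42, 0.39 and 0.26 in TBH P4 and 2.37, 2.28 and 2.34 in WT P4, against 0.33, 0.64 and 0.18 in TBH P2 and 0.48, 0.14 and 1 in WT P2, and an interaction of -1.36 (95% interval -2.29 to -0.43, adjusted p = 0.717). Adipose triglyceride lipase brummer, which releases fatty acids from fat droplets, had 1.21, 0.79 and 1.4 in TBH P4 and 0.2, 0 and 0.22 in WT P4, against 0, 0 and 0.88 in TBH P2 and 0.08, 1.08 and 0 in WT P2. TBH P4 stood above WT P4 without overlap and the interaction was 0.79 (95% interval -0.34 to 1.93, adjusted p = 1). Cytochrome b-c1 complex subunit 6, a respiratory chain gene, was listed at 0 in every P4 sample and had 0, 23 and 0 in TBH P2 and 57.9, 9.49 and 50.7 in WT P2, with an interaction of 3.27 (95% interval -0.04 to 6.58, adjusted p = 0.945). TEF2, translation elongation factor 2, had 616, 646 and 599 in TBH P4 and 25.8, 199.8 and 407 in WT P4, against 539.6, 431 and 513 in TBH P2 and 201, 434 and 304 in WT P2. Its TBH samples stood above WT at P4 without overlap, but WT P4 was widely spread, and the interaction was 1.35 (95% interval -0.95 to 3.65, adjusted p = 1). The hemolymph juvenile hormone binding protein, which carries that hormone, was higher in WT at P2 in 2 of 3 samples than in any TBH P2 sample, with 0, 0.12 and 0.89 in TBH P4 and 0, 0 and 0.47 in WT P4, against 2.83, 0.69 and 0.48 in TBH P2 and 4.71, 3.41 and 2 in WT P2 and an interaction of 0.98 (95% interval -0.40 to 2.36, adjusted p = 1).

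Genes above 0 in every group but 1 were few. Listed at 0 in all samples of WT P4 and above 0 in all other samples were 4 tested genes, 1 of them called. The same held for WT P2 at 2 genes, 1 of them called, and for TBH P4 and TBH P2 at 0 genes. Among the tested genes, 16 shared identical values in all samples with another, in 7 distinct sets, and counting each set once left 15 calls.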
